A study of Homo sapiens with 6 samples.

Results

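The genes described here encode 9 enzymes of the late part of cholesterol synthesis, the steps that follow squalene: SQLE, LSS, CYP51A1, TM7SF2, MSMO1, NSDHL, EBP, SC5D and DHCR7. They were taken by gene name from a table of 58735 genes, and each name matched 1 row. Expression was measured by RNA sequencing of U937 cells, an established human myeloid leukaemia line with features of immature monocytes. One group was 3 libraries labelled shENO1, read here as cells with a short hairpin RNA against ENO1 (which encodes alpha-enolase, an enzyme of glycolysis), and the other was 3 libraries of wild-type U937 cells. The labels name no control hairpin, and give neither the number of hairpins or clones nor a culture time. Nothing in them tells whether replicates were separate cultures, so p-values reflect the spread among these libraries alone, and that spread may be technical. The comparison asks which transcripts differ between cells with the hairpin and wild-type cells.

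Values are FPKM, fragments per kilobase of transcript with a correction for library size, as deposited. Reads in genes recovered from the values numbered 14845420 to 17499636 in the shENO1 libraries and 14216739 to 15886584 in the wild-type libraries. ENO1 itself (ENSG00000074800) had 91.5, 82.7 and 111 FPKM in the shENO1 libraries, against 526, 545 and 561 FPKM in the wild-type libraries, an exact two-sided permutation p = 0.1, the smallest that 3 against 3 libraries can give. The groups were compared with limma on log2(FPKM + 1) in the 12809 genes that averaged 1 FPKM or more, and a gene was called at a Benjamini-Hochberg adjusted p under 0.05. Of these genes, 1007 were called higher and 828 lower in shENO1 cells (2088 and 1972 at an unadjusted p under 0.05). The counts were 1396 and 501 when libraries were scaled to the same total over nuclear genes. Higher genes made up 54.9% and 73.6% of the calls in these 2 settings. With limma-voom on recovered reads, 1393 were called higher and 928 lower. The libraries shENO1 replicate 3 and wild-type replicate 3 stood at opposite ends of principal component 2 (27.3% of the variance, scores -34.7 and 32.2), so counts are also given without them. Of 11 marker genes of the myelomonocytic lineage, 9 had a mean of at least 1 FPKM. FCGR1A and CSF1R were called higher (4 genes with limma-voom) and 0 lower (0 at an unadjusted p under 0.05, 0 with limma-voom). CSF1R averaged 0.941 FPKM in wild-type and 2.28 FPKM in shENO1 cells. It passed the filter on FPKM only through its shENO1 level, so its call is not counted as a rise. The list summed to 819 to 1188 FPKM in shENO1 libraries and 645 to 740 FPKM in wild-type libraries. LYZ was the largest part of each sum, at 634 ± 192 FPKM in shENO1 and 384 ± 66.7 FPKM in wild-type cells (SD, n = 3 each, limma adjusted p = 0.107). Among tested markers that limma did not call, PTPRC, CD33 and CD4 had log2 fold changes of -0.18, -0.15 and -0.11. Those of SPI1, ITGAM, CEBPA and LYZ were positive (0.04 to 0.70). CD68 and MPO were below 1 FPKM in every library. Markers of T cells, red cells and epithelium (3 genes each) summed to at most 0.0392, 0 and 0.0096 FPKM in a shENO1 library and 0.316, 0 and 0.373 FPKM in a wild-type library. The 3 B cell markers summed to 4.28 to 7.70 FPKM in shENO1 libraries and 7.93 to 10.2 FPKM in wild-type libraries, of which MS4A1 was at 0 in all 6, and the 3 fibroblast markers to 0.652 to 1.27 FPKM in shENO1 libraries and 1.28 to 1.53 FPKM in wild-type libraries. Their part in the results was not tested.

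As background, squalene is the last linear intermediate of cholesterol synthesis. SQLE adds an oxygen to it, LSS folds the epoxide into lanosterol, the first sterol, and the other enzymes, most of them in the membrane of the endoplasmic reticulum, remove methyl groups and shift or reduce double bonds until cholesterol is reached. Most genes of the pathway are known targets of the SREBP transcription factors, which are released from the endoplasmic reticulum when its sterol content falls and act on promoters together with NF-Y and Sp1. SQLE is regarded as one of the rate-limiting enzymes of the pathway.

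Promoter windows, from 250 bases before to 50 bases after a RefSeq transcription start (GRCh38.p14), were found for 8 of the 9 genes, in 10 windows, and for every one of them except SQLE. The 4 windows below are printed because they set the MSMO1, EBP and CYP51A1 promoters, of genes called lower in shENO1 cells, beside the LSS promoter, of a gene that was not called. Capitals mark matches, on either strand, to TCACNCCAC (the core of a sterol regulatory element), TCACNNCA (a looser form of it), CCAAT (bound by NF-Y), GGGCGG (bound by Sp1) and CACGTG (an E-box); the first 2 can overlap, and a match is a run of letters, not a shown binding site. The MSMO1 window lies at chr4:165327419-165327718 (plus strand), EBP at chrX:48521558-48521857 (plus strand), CYP51A1 at chr7:92134428-92134727 (minus strand) and LSS at chr21:46228725-46229024 (minus strand), each written 5′ to 3′ along the gene.
MSMO1: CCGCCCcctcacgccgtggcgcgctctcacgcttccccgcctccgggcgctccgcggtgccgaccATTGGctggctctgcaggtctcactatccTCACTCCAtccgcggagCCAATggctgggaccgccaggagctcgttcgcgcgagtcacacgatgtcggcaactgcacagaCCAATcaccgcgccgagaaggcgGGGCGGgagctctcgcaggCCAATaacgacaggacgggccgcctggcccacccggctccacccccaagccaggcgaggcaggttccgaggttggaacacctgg
EBP: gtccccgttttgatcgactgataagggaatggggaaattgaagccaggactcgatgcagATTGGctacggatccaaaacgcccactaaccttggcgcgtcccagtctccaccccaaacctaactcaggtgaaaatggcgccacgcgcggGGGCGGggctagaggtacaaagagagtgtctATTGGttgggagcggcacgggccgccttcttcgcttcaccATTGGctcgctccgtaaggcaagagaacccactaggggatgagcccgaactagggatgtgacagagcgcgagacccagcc
CYP51A1: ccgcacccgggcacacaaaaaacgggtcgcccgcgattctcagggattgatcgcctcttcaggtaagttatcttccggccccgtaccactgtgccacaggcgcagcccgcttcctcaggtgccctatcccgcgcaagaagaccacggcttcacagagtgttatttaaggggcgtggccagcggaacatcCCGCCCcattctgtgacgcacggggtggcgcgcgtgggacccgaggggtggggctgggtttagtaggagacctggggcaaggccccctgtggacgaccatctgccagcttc
LSS: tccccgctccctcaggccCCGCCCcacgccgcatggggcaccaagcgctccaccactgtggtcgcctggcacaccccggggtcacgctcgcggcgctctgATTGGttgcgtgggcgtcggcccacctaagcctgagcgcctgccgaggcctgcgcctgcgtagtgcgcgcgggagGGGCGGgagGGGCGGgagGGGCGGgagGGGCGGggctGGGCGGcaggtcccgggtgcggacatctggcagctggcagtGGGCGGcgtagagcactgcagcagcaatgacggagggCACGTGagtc

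CCAAT was present in promoters of 7 of the 8 genes (8 of 10 windows), against 34.6% of all 35116 RefSeq promoter windows of the same length. The MSMO1 window held 4 such matches, at 185, 139, 76 and 34 bases before the start, the EBP window 3 at 191, 70 and 30 bases before it, and the NSDHL window 5. LSS, TM7SF2 and SC5D had 1 position each, and CYP51A1 none. GGGCGG was present in 7 of the 8 genes (8 of 10 windows), NSDHL being the exception, against 45.0% of all windows, with 6 plus-strand and 1 minus-strand match in LSS. The 10 windows were 57% to 75% G and C, and the set of all windows was not matched for this. No window held TCACNCCAC, which occurs in 1.13% of all windows. TCACNNCA, added to the search after that result was seen, occurred in 1 window, that of MSMO1 at 156 bases before the start, against 12.7% of all windows. CACGTG was found in LSS and SC5D (3 of 10 windows), against 7.26% of all windows. MSMO1 and EBP, which were called lower, and LSS, which was not, all held both CCAAT and GGGCGG.

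Transcripts of 5 of the 9 enzymes fell in shENO1 cells: SQLE, CYP51A1, MSMO1, EBP and SC5D. They were 1.65-fold, 2.06-fold, 1.92-fold, 1.62-fold and 1.44-fold lower as ratios of mean FPKM. LSS, TM7SF2, NSDHL and DHCR7 did not pass the test, and 0 of the 9 rose (0 at an unadjusted p under 0.05, and 0 with limma-voom on recovered reads). Among all tested genes, 6.46% were called lower and 7.86% higher. In the same 5 genes every shENO1 library lay below every wild-type library, a pattern found in 17.9% of tested genes, and in 0 of the 9 did every shENO1 library lie above, as in 19.6% of tested genes. The median log2 fold change was -0.49 over the 9 enzymes, which all passed the filter on FPKM, and -0.02 over all tested genes. With 1 library left out at a time, the number called lower was 4 without shENO1 replicate 3 (748 of all tested genes were then lower). It was 2 if shENO1 replicate 2 (533) or wild-type replicate 3 (775) was dropped. It was 1 if shENO1 replicate 1 (266) or wild-type replicate 1 (134) or 2 (159) was dropped. With no filter on FPKM it was 2 (SQLE and MSMO1), where 381 of all tested genes were lower. It was 5 with replicate 3 of both groups left out together (2033 of all tested genes), where NSDHL passed and SC5D did not. In bulk RNA, fewer cells that express a gene and less RNA per cell cannot be told apart.

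**Figure D1:**
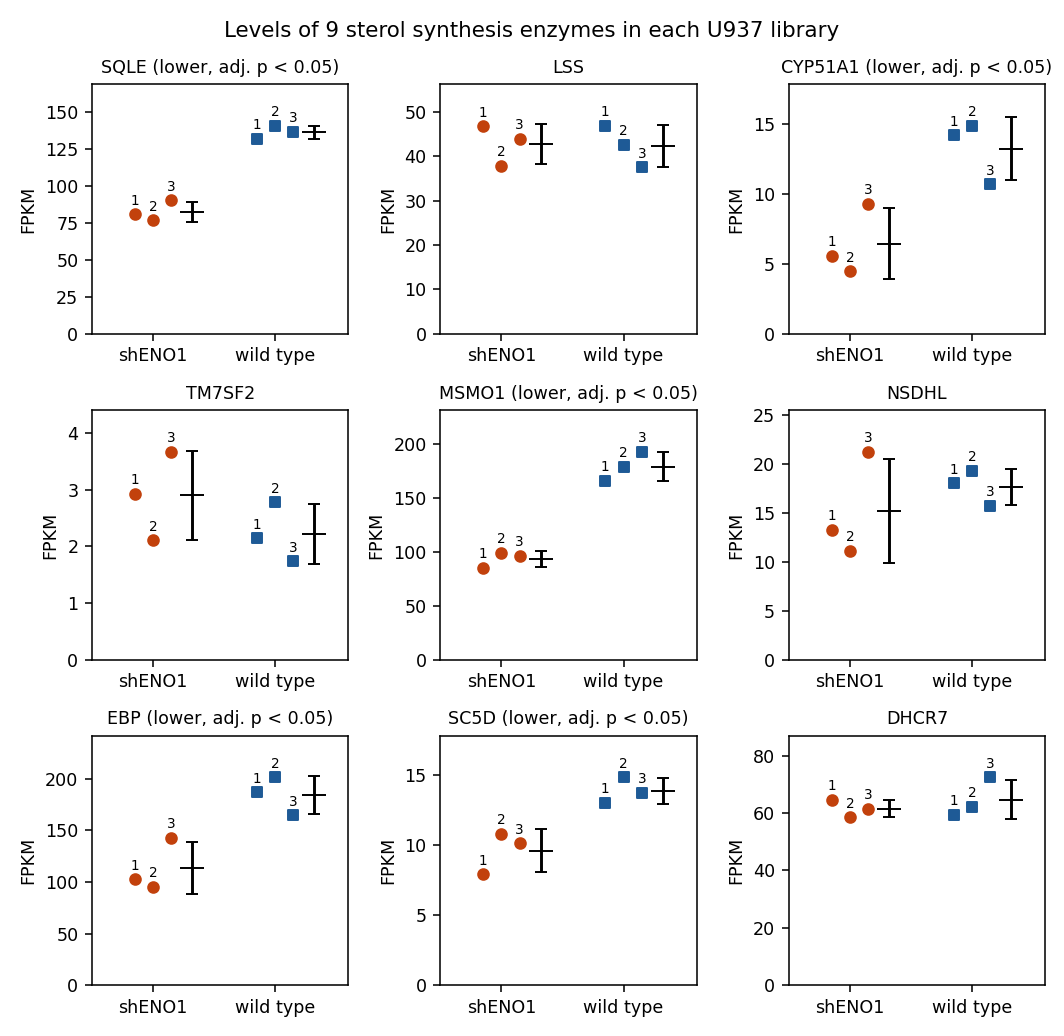
Each panel plots FPKM (y axis, from 0) of 1 enzyme in the 3 shENO1 libraries (circles) and the 3 wild-type libraries (squares), numbered by replicate, with the mean and SD of each group beside them. The groups are apart in SQLE, CYP51A1, MSMO1, EBP and SC5D and overlap in LSS, TM7SF2, NSDHL and DHCR7.

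SQLE (ENSG00000104549, chromosome 8, 124998497 to 125022283, plus strand, GRCh38), squalene epoxidase, had 80.7, 76.7 and 90.1 FPKM in the shENO1 libraries, against 132, 140 and 137 FPKM in the wild-type libraries. All 3 shENO1 libraries were low, with a gap to the wild-type range. Mean levels were 82.5 ± 6.90 FPKM in shENO1 and 136 ± 4.42 FPKM in wild-type cells (SD, n = 3 each). The difference on the log2 scale was -0.72 (SE 0.11, limma adjusted p = 0.0109), from 5017 to 6542 reads per shENO1 library and 8153 to 9454 per wild-type library. Leaving out shENO1 replicate 1, wild-type replicate 1 or wild-type replicate 2 kept the log2 fold change between -0.74 and -0.70 and gave limma adjusted p = 0.0504, 0.0562 and 0.064.

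LSS (ENSG00000160285, chromosome 21, 46188141 to 46228824, minus strand), lanosterol synthase, had 46.7, 37.8 and 43.9 FPKM in the shENO1 libraries, against 46.8, 42.5 and 37.5 FPKM in the wild-type libraries. The groups covered the same range. Mean levels were 42.8 ± 4.54 FPKM in shENO1 and 42.2 ± 4.67 FPKM in wild-type cells (SD, n = 3 each), with a log2 fold change of 0.02 (95% interval -0.28 to 0.32, limma adjusted p = 0.937). That interval lay above the interval of the step before it, SQLE, which ran from -0.97 to -0.47.

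CYP51A1 (ENSG00000001630, chromosome 7, 92112151 to 92134803, minus strand), the cytochrome P450 that removes the C14 methyl group of lanosterol, had 5.56, 4.46 and 9.28 FPKM in the shENO1 libraries, against 14.2, 14.8 and 10.7 FPKM in the wild-type libraries. Replicate 3 of each group stood closest to the other group, and the groups did not overlap. Mean levels were 6.43 ± 2.53 FPKM in shENO1 and 13.2 ± 2.24 FPKM in wild-type cells (SD, n = 3 each), and the log2 fold change was -0.98 (95% interval -1.57 to -0.39, limma adjusted p = 0.0456), on 243 to 561 and 530 to 832 reads per library. The limma adjusted p was 0.0193 without shENO1 replicate 3 and 0.00409 without replicate 3 of both groups. It was 0.137 and 0.101 without shENO1 replicates 1 and 2, and 0.147, 0.141 and 0.051 without wild-type replicates 1, 2 and 3, with log2 fold changes of -1.24 to -0.78 over the 6 settings.

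TM7SF2 (ENSG00000149809, chromosome 11, 65111845 to 65116384, plus strand), a sterol C14 reductase, was the least abundant of the 9, with 2.92, 2.10 and 3.67 FPKM in the shENO1 libraries, against 2.14, 2.78 and 1.74 FPKM in the wild-type libraries. The groups overlapped. The log2 fold change was 0.27 (95% interval -0.19 to 0.73, limma adjusted p = 0.382) on 82 to 211 reads per library. LBR, which encodes the other sterol C14 reductase and also anchors chromatin at the nuclear envelope, was more abundant per length, at 68.5 ± 7.52 FPKM in shENO1 and 52.8 ± 4.52 FPKM in wild-type cells (SD, n = 3 each, limma adjusted p = 0.0876).

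MSMO1 (ENSG00000052802, chromosome 4, 165327623 to 165343160, plus strand), the oxidase that starts removal of the C4 methyl groups, had 85.1, 99.1 and 96.1 FPKM in the shENO1 libraries, against 166, 179 and 193 FPKM in the wild-type libraries. The highest shENO1 library lay well below the lowest wild-type library. Averages were 93.4 ± 7.36 FPKM in shENO1 and 179 ± 13.7 FPKM in wild-type cells (SD, n = 3 each). The difference on the log2 scale was -0.93 (SE 0.12, limma adjusted p = 0.00757), from 3830 to 4688 and 7231 to 8101 reads per library. Of the 9 enzymes, MSMO1 alone passed in all 6 settings that left out 1 library, with log2 fold changes of -0.99 to -0.87 and limma adjusted p from 0.0175 to 0.0448.

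NSDHL (ENSG00000147383, X chromosome, 152830967 to 152869729, plus strand), the dehydrogenase that follows MSMO1 in C4 demethylation, had 13.3, 11.1 and 21.2 FPKM in the shENO1 libraries, against 18.0, 19.3 and 15.7 FPKM in the wild-type libraries. The groups overlapped, with shENO1 replicate 3 the highest and shENO1 replicate 2 the lowest of all 6. The log2 fold change was -0.25 (95% interval -0.78 to 0.29, limma adjusted p = 0.5). Without shENO1 replicate 3 it was -0.50 (limma adjusted p = 0.06), without shENO1 replicate 2 it was -0.06 (0.881), and without replicate 3 of both groups -0.58 (0.0203).

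EBP (ENSG00000147155, X chromosome, 48521158 to 48528716, plus strand), the isomerase that moves the ring double bond from one position of ring B to the next, was the most abundant of the 9 in mean FPKM. It had 103, 95.4 and 143 FPKM in the shENO1 libraries, against 187, 201 and 165 FPKM in the wild-type libraries. The groups did not overlap, with replicate 3 of each again closest to the other group. Averages were 114 ± 25.4 FPKM in shENO1 and 184 ± 18.4 FPKM in wild-type cells (SD, n = 3 each), and the log2 fold change was -0.71 (95% interval -1.14 to -0.29, limma adjusted p = 0.044), on 3494 to 5794 and 5497 to 7584 reads per library. The limma adjusted p was 0.0204 without shENO1 replicate 3 and 0.0048 without replicate 3 of both groups, but 0.139 and 0.106 without shENO1 replicates 1 and 2, and 0.143, 0.152 and 0.0549 without wild-type replicates 1, 2 and 3.

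SC5D (ENSG00000109929, chromosome 11, 121292453 to 121308694, plus strand), the C5 desaturase, had 7.90, 10.8 and 10.1 FPKM in the shENO1 libraries, against 13.0, 14.8 and 13.7 FPKM in the wild-type libraries. All shENO1 libraries were lower, and shENO1 replicate 1 was the lowest. Averages were 9.60 ± 1.51 FPKM in shENO1 and 13.8 ± 0.915 FPKM in wild-type cells (SD, n = 3 each), and the log2 fold change was -0.49 (95% interval -0.80 to -0.19, limma adjusted p = 0.0478), on 684 to 949 and 1056 to 1289 reads per library. It lost the call in each setting that left out 1 library, with limma adjusted p = 0.106, 0.0541 and 0.0662 without shENO1 replicates 1, 2 and 3, and 0.122, 0.163 and 0.0821 without wild-type replicates 1, 2 and 3, at log2 fold changes of -0.58 to -0.37. Of 12 other settings it passed in 6, and with libraries scaled over nuclear genes the limma adjusted p was 0.0985.

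DHCR7 (ENSG00000172893, chromosome 11, 71428193 to 71452868, minus strand), which reduces 7-dehydrocholesterol to cholesterol, had 64.5, 58.5 and 61.3 FPKM in the shENO1 libraries, against 59.4, 62.2 and 72.4 FPKM in the wild-type libraries. The groups overlapped, and wild-type replicate 3 was the highest. The log2 fold change was -0.07 (95% interval -0.33 to 0.20, limma adjusted p = 0.717), on 3701 to 4303 reads per shENO1 library and 3726 to 4171 per wild-type library. At this depth its interval, like that of LSS, lay above the interval of SQLE and above that of MSMO1 (-1.21 to -0.66).

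**Figure D2:**
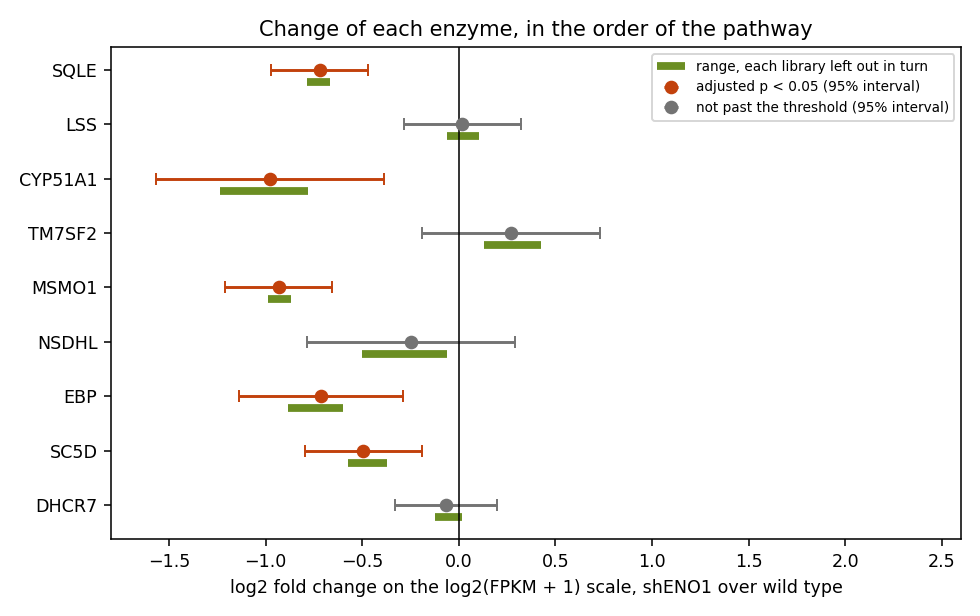
Points are log2 fold changes of shENO1 over wild type (x axis, log2(FPKM + 1) scale) for the 9 enzymes in pathway order (y axis), with limma 95% intervals; the bar under each point is the range over 6 settings that each left out 1 library. The intervals of SQLE, CYP51A1, MSMO1, EBP and SC5D lie below 0, and those of LSS, TM7SF2, NSDHL and DHCR7 include it.

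**Figure D3:**
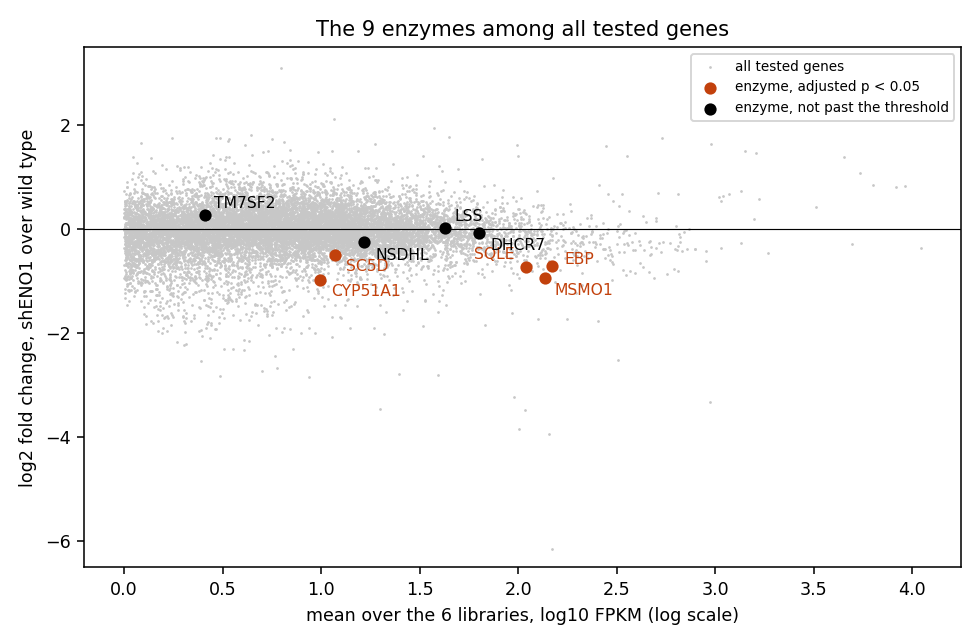
Log2 fold change of shENO1 over wild type (y axis) is plotted against the mean over 6 libraries in log10 FPKM (x axis) for all tested genes (grey) and the 9 enzymes (large points). MSMO1, SQLE and EBP are among the abundant transcripts and lie at -0.93, -0.72 and -0.71.

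Levels per length ran in the same order in both groups, from EBP, MSMO1, SQLE, DHCR7, LSS, NSDHL and SC5D to CYP51A1 and TM7SF2. In shENO1 cells the ranges over libraries overlapped between EBP and MSMO1, between MSMO1 and SQLE, and between SC5D and CYP51A1, and the other neighbours in the order did not overlap. In wild-type cells the overlapping neighbours were EBP with MSMO1 and SC5D with CYP51A1. Summed over the 9 genes, the level was 409, 396 and 478 FPKM in the shENO1 libraries and 638, 677 and 646 FPKM in the wild-type libraries, so that shENO1 cells had 65.5% of the wild-type sum. EBP, MSMO1 and SQLE made up 67.6% ± 1.75 of that sum in shENO1 and 76.5% ± 0.492 in wild-type cells (SD, n = 3 each).

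Within a library, each enzyme was also set against the mean log2(FPKM + 1) of the other 8, a difference of logs in which library scaling cancels apart from the pseudocount. MSMO1 stood 1.96 ± 0.24 above the others in shENO1 and 2.53 ± 0.18 above them in wild-type cells, and SQLE stood 1.76 ± 0.09 above them in shENO1 and 2.09 ± 0.08 in wild-type cells (SD, n = 3 each). EBP stood 2.26 ± 0.13 above them in shENO1 and 2.57 ± 0.08 in wild-type cells. CYP51A1 was below them, at -2.22 ± 0.31 in shENO1 and -1.60 ± 0.19 in wild-type cells, with no overlap between the groups. Its difference was -0.62, against -0.57 for MSMO1, but -0.34 with a pseudocount of 5. The 9 differences between groups sum to 0 by construction, so genes that did not fall with the others come out higher. LSS was at 0.71 ± 0.21 in shENO1 and 0.21 ± 0.15 in wild-type cells, with no overlap between the groups. TM7SF2 was at -3.23 ± 0.15 in shENO1 and -4.01 ± 0.17 in wild-type cells. DHCR7 was at 1.29 ± 0.21 in shENO1 and 0.89 ± 0.24 in wild-type cells, with wild-type replicate 3 (1.16) inside the shENO1 range. These differences carry no p, since the members were chosen with earlier results of these data known.

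Each enzyme was then set against its own mean over the 6 libraries. The median deviation over the 9 enzymes was -0.39, -0.38 and -0.01 in shENO1 replicates 1, 2 and 3 and 0.16, 0.34 and 0.20 in wild-type replicates 1, 2 and 3 (log2). shENO1 replicate 3 stood near the average in CYP51A1 (0.03) and EBP (-0.01) and above it in NSDHL (0.38), but with the other shENO1 libraries in MSMO1 (-0.42) and SQLE (-0.23). These libraries also differed in reads from the mitochondrial chromosome, which made up 6.65%, 7.42% and 5.72% of reads in shENO1 replicates 1, 2 and 3 and 3.38%, 3.49% and 5.19% in wild-type replicates 1, 2 and 3. With libraries scaled over nuclear genes, 4 of the 9 enzymes were called lower (501 of all tested genes), all but SC5D of the 5.

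**Figure D4:**
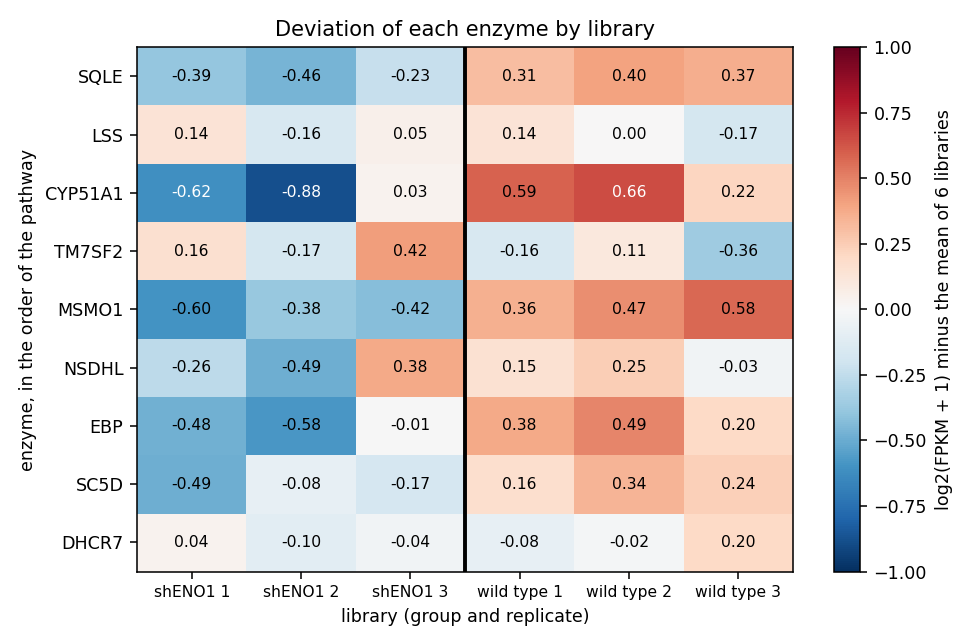
Cells give log2(FPKM + 1) of an enzyme (rows, pathway order) in a library (columns, 3 shENO1 left of 3 wild type) minus its mean over the 6 libraries, from blue (lower) to red (higher). MSMO1 and SQLE are low in all shENO1 libraries, while shENO1 replicate 3 is at 0.03 in CYP51A1, -0.01 in EBP and 0.38 in NSDHL.

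Several of the genes share their locus with others. The annotated transcript AC000120.2 (ENSG00000285772), on the same strand as CYP51A1, covers 2844 of the 3584 exonic bases of CYP51A1 (79.4%) in GENCODE 29 and was listed at 0 in all 6 libraries. How reads that fit both genes were assigned is not given in the sources used here, so the level of CYP51A1 per length is uncertain. The pseudogene copies CYP51A1P1, CYP51A1P2 and CYP51A1P3 had at most 20 reads in any library. The misc_RNA gene RF00017 (ENSG00000276823, X chromosome, 48524480 to 48524806), inside EBP but outside its annotated exons, was at 0.833 ± 0.065 FPKM in shENO1 and 11.1 ± 3.80 FPKM in wild-type cells (SD, n = 3 each), on 4 to 72 reads per library (log2 fold change -2.68). It passed the filter on FPKM only through its wild-type level, so no p is given. RF00017 is the Rfam name of the signal recognition particle RNA family, which has many copies in the genome, so the origin of those reads is uncertain. The antisense gene AP002387.1, within DHCR7 but sharing no exonic base with it, had 11.2 ± 3.0 FPKM in shENO1 and 15.8 ± 2.51 FPKM in wild-type cells, and AP001469.1, antisense to LSS with 122 shared exonic bases, had 4.80 ± 2.29 FPKM in shENO1 and 9.07 ± 2.97 FPKM in wild-type cells (limma adjusted p = 0.149 and 0.166). No strand setting is stated, so reads in the exonic bases that a gene shares with its antisense partner cannot be told apart. VPS51 shares 16 exonic bases with TM7SF2. AP001468.1, antisense to LSS with 448 shared exonic bases, had at most 4 reads in any library. CYP51A1-AS1, antisense to CYP51A1 with 138 shared exonic bases, had at most 2. AC000120.3, which shares 99 exonic bases with CYP51A1, was listed at 0 in all 6 libraries.

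Around these enzymes, 4 of 10 tested genes of a mevalonate list fell and 0 rose (1 higher at an unadjusted p under 0.05, 0 with limma-voom), where 6.46% of all tested genes were called lower and 7.86% higher. The list held the steps up to squalene and also GGPS1, which lies on a branch off them (log2 fold change 0.29, limma adjusted p = 0.14). The median log2 fold change of the list was -0.42. FDFT1, the synthase that makes squalene, was at 151 ± 16.7 FPKM in shENO1 and 271 ± 15.1 FPKM in wild-type cells (SD, n = 3 each, limma adjusted p = 0.0111). HMGCS1 and MVD, of earlier steps, were also called lower, with log2 fold changes of -1.06 and -0.99. The count was 0 if wild-type replicate 1 was dropped (134 of all tested genes were then lower), 1 if wild-type replicate 2 (159) or shENO1 replicate 1 (266) was dropped, and 7 if replicate 3 of both groups was dropped (2033). Of the other enzymes after squalene, 3 were tested, LBR and ERG28 among them, and 0 passed in limma or limma-voom (1 higher and 1 lower at an unadjusted p under 0.05), with a median of 0.19. Of these, 1 was called higher without replicate 3 of both groups (1649 of all tested genes). HSD17B7 and FAXDC2 were below the filter on FPKM. Among 6 tested electron carriers, which pass electrons to SQLE, CYP51A1, MSMO1 and SC5D, 0 passed in limma or limma-voom (0 at an unadjusted p under 0.05 in limma, 1 in limma-voom), with POR, the cytochrome P450 reductase, at 15.1 ± 1.24 FPKM in shENO1 and 13.8 ± 2.08 FPKM in wild-type cells.

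In the list of SREBP control and sterol uptake, 3 of 12 tested genes fell and 0 rose, with a median of -0.18. Of all tested genes, 6.46% were called lower and 7.86% higher. At an unadjusted p under 0.05, 2 genes of the list were higher (2088 of all 12809 tested genes), and with limma-voom 2 (1393). The genes called lower included STARD4, a sterol carrier (log2 fold change -1.03), and INSIG1, which holds SREBP in the endoplasmic reticulum (-0.68). The SREBP2 gene SREBF2 was at 66.0 ± 5.60 FPKM in shENO1 and 72.5 ± 4.97 FPKM in wild-type cells (SD, n = 3 each, limma adjusted p = 0.442). Without wild-type replicate 1 or 2, 1 gene of this list was called lower, where 134 and 159 of all tested genes were. Without wild-type replicate 3, 1 gene of this list was called higher (914 of all tested genes). In the list of efflux and storage, 2 of 5 fell and 2 rose, against the same 6.46% and 7.86%, with a median of 0.01: MYLIP, a ubiquitin ligase (-0.63), and NR1H3, a liver X receptor (-0.70), were lower, and NR1H2, the other liver X receptor (0.77), and SOAT1, which esterifies cholesterol for storage (0.52), were higher. With no filter, or with scaling by total FPKM, by nuclear genes or by quantiles, 1 gene of that list was called higher. The counts lower and higher in that list were 0 and 0 if wild-type replicate 1 was dropped, 0 and 1 if wild-type replicate 2 was dropped, 1 and 0 if shENO1 replicate 1 was dropped, and 2 and 1 if shENO1 replicate 2 was dropped.

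Of 6701 other protein-coding genes that averaged 5 FPKM or more, the 5 whose log2(FPKM + 1) followed the mean of the 9 enzymes most closely over the 6 libraries were MT1E, THAP3, IGBP1, RPL10 and DCTN2, with Pearson r from 0.994 to 0.997. The 6 points are 2 groups that lie apart in this mean, so a gene that differs between the groups tends to score high, and 533 of the genes (7.95%) had r over 0.9. MT1E, a metallothionein, was at 10.5 ± 3.20 FPKM in shENO1 and 19.1 ± 2.45 FPKM in wild-type cells (SD, n = 3 each).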

How the data were processed

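Libraries of 3 shENO1 and 3 wild-type U937 samples were prepared with TruSeq RNA reagents (labels' protocols). The authors' deposited table gives FPKM per gene and library, from STAR, Cufflinks and Cuffnorm on hg38 (GRCh38), per the submitters' processing notes; their versions and settings, and how ambiguous reads and strand were treated, are not given in the sources used here. FPKM times gene length came in whole steps in each library (100% of values above 0, tolerance 0.001), which gave reads per gene for depth and for limma-voom. Genes averaging 1 FPKM or more were tested with limma 3.58.1 in R 4.3.3 on log2(FPKM + 1), with a mean-variance trend and Benjamini-Hochberg adjustment over all tested genes. These log2 fold changes understate changes of low genes. The code was tested on simulated data. No replicates looked like 1 library deposited more than once (chi-square per degree of freedom 4.30 to 46.5).

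The members and lists were chosen with earlier results of these data known. The text names the 9 enzymes, ENO1, and genes overlapping the enzymes or copied from them. It also names up to 3 called genes of the largest change per list, and the 5 genes most like the mean of the enzymes. GGPS1, SOAT1, LBR, ERG28, HSD17B7, FAXDC2, POR, SREBF2 and the marker genes were named after their values were seen. Alternatives covered pseudocount, filter, scaling, trend, limma-voom, left-out libraries and the replicate number as a block. Promoters are from RefSeq starts, which can lie inside the gene models, as the windows of DHCR7 and EBP do. Other starts of these genes were not searched. Gene models were compared with GENCODE 29, where the start and end of all 9 enzymes were the same. Protein sequences were not analysed here, and some list members are not reported here. Figures used matplotlib 3.10.9 in Python 3.11.15.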

Additional observations from a re-analysis of the deposited data

How the results depend on the processing

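The median log2 fold change of the 9 enzymes stayed within 1 SD between replicates (0.17) of its value under all 18 alternatives, and their summed FPKM stayed between 61.2% and 70.7% of wild type under 10. Dropping the filter, dropping the mean-variance trend and adding the replicate block cannot change an enzyme's log2 fold change. The median was -0.49 in these settings by construction, so only the other alternatives could move it. The number called lower depended more on the setting: it was 2 with no filter on FPKM, 3 with no mean-variance trend, and 1 to 4 with 1 library left out. Of 161 values of single enzymes, 119 kept direction and side of the threshold, 32 lost the call, 1 gained it (NSDHL, without replicate 3 of both groups) and 9 changed sign. With a changed filter, no trend or the replicate block, only the side of the threshold could change. The sign changes were in LSS (-0.018 with the same FPKM total, -0.083 without replicate 3 of both groups, and -0.063 to 0.10 with 1 library left out) and DHCR7 (0.046 with nuclear scaling, 0.017 with quantile normalisation, 0.016 without replicate 3 of both groups, and -0.13 to 0.015 with 1 library left out). Set against the other 8 enzymes, 70 of 81 values moved by less than 1 SD and 6 by more, and SC5D (-0.07) changed sign to 0.014 with a pseudocount of 5, 0.042 without replicate 3 of both groups and -0.25 to 0.028 with 1 library left out, as did NSDHL (0.20) to -0.0014 without replicate 3 of both groups. The labels do not say whether replicate numbers pair the libraries. Correlations of the deviations from the group mean were -0.08, -0.33 and -0.46 between same-numbered libraries and -0.20 to 0.42 between the others. The deviations sum to 0 within a group, so these correlations depend on each other and cannot decide whether the libraries are paired. With the replicate block, 0 enzymes were called lower by limma (5 at an unadjusted p under 0.05), and ENO1, at a log2 fold change of -2.51, had limma adjusted p = 0.0713. Over all tested genes, lower and higher calls were 1 and 0 with the block (1524 and 1557 at an unadjusted p under 0.05). They were 381 and 445 with no filter (of the larger set of genes above 0 FPKM in any library), 806 and 974 with no mean-variance trend, and 2033 and 1649 without replicate 3 of both groups. With 1 library left out they were 134 to 775 and 147 to 914, and 501 were lower with nuclear scaling. The causes of these differences were not tested. With a filter of 5 FPKM there was no value for TM7SF2. Reads were fewest in TM7SF2, with 82 to 211 per library.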
